A study of Mus musculus with 28 samples.

Results

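TNFR1 is the main receptor through which the cytokine TNF acts on cells, and 10 mouse genes of the receptor and the proteins that gather at its cytoplasmic tail are followed here, of 55414 genes listed per library. They were chosen by symbol, for their place in the complex, though with earlier results of these data known. They are the receptor gene Tnfrsf1a, the adaptors Tradd, Fadd and Traf2, and the kinases Ripk1 and Map3k7. The others are the ubiquitin ligase Birc2, the kinase adaptor Tab2, the protease Casp8 and its inactive relative Cflar. The study measured whole-brain RNA with QuantSeq, a protocol that reads the 3′ end of each polyadenylated transcript, in the cuprizone model. Cuprizone is a copper chelator that kills oligodendrocytes and strips myelin from the brain, and myelin is rebuilt after its withdrawal. There were 28 libraries in 4 groups of 7, all from animals with floxed alleles of the TNFR1 gene. The naive group (stage code CPZ0), the demyelination group (CPZ5, the peak of myelin loss) and the remyelination group (CPZ6+1) were TNFR1ff controls backcrossed to C57BL/6. The knockout group was mgTNFR1KO, that is Cx3cr1-CreER.Tnfr1ff, also at CPZ6+1, in which tamoxifen had been given to delete TNFR1 in microglia. No unit accompanies the stage codes. The labels speak of samples and not of separate animals, so each p-value measures the spread between these samples, part of which may be technical.

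When TNF binds, the death domains of TNFR1 recruit TRADD and the kinase RIPK1, and TRADD brings in TRAF2 with the ubiquitin ligases cIAP1 (from Birc2) and cIAP2. Ubiquitin chains built on RIPK1 are read by TAB2, which holds the kinase TAK1 (from Map3k7), and TAK1 starts the NF-kB and MAP kinase branches. If RIPK1 leaves the receptor, it can form a second complex with FADD and caspase-8, in which caspase-8 drives apoptosis and cFLIP (from Cflar) restrains it. In the brain, microglia and other cells carry TNFR1, and microglia are a known source of TNF during demyelination.

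Across these brains the receptor gene changed and its partners showed no called change. Tnfrsf1a was higher in demyelination, remyelination and knockout brains than in naive brains, while none of the other 6 members that could be tested passed the threshold in any of 6 comparisons between the groups. Genes were tested with edgeR's quasi-likelihood method on 12423 genes, and called at a Benjamini-Hochberg adjusted p below 0.05. Tradd, Fadd and Casp8 had too few reads to enter that test. Levels are given as normalised CPM, read counts scaled to the size of the library. Since each transcript gives about 1 tag near its end, CPM was not divided by transcript length.

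Because Tnfrsf1a is the member that changed, its promoter is shown, taken from the RefSeq promoter table on GRCm38.p6 at chr6:125349473-125349722 on the plus strand, the 250 bases before the annotated start site. Capitals mark the only match to 7 motifs searched.
Tnfrsf1a promoter: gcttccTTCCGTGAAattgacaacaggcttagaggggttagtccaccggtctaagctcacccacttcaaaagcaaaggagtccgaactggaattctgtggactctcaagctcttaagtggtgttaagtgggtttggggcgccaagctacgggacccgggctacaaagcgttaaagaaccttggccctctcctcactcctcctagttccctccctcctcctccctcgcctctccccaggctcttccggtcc
The stretch had 55.6% G and C. The capitals, at position -244 relative to the start site, match TTCNNNGAA, the GAS element bound by STAT factors, which 8.3% of 32851 mouse promoters held in windows of 300 bases, 50 of them after the start. Both strands were searched. The same Tnfrsf1a window held no match to the GC box GGGCGG (35.7% of promoters), the CCAAT box (37.4%), the PU.1 core GAGGAA (28.3%), the AP-1 motif TGANTCA (7.81%), the interferon-stimulated response element (3.44%) or the NF-kB consensus (8.46%). Promoters were found for 9 of the 10 members, 12 in all, and that of Map3k7 held an NF-kB consensus match. A Ripk1 promoter held 2 GAS matches and 1 match to the interferon-stimulated response element, and the Cflar promoter held 1 match to the latter. Neither Ripk1 nor Cflar was called in any comparison. A match is a run of letters and not a site shown to be used.

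Tnfrsf1a (ENSMUSG00000030341.18) encodes TNFR1 itself. Its lowest, median and highest levels were 9.47, 13.6 and 17.9 CPM in naive, 19.6, 26.9 and 32.5 CPM in demyelination, 16.3, 21.6 and 30.2 CPM in knockout, and 15.4, 23.5 and 28.6 CPM in remyelination libraries. Every demyelination library stood above every naive library. Of the 7 remyelination libraries 6 stood above all naive libraries, as did 6 of the 7 knockout libraries, and the lowest library of each of these groups fell inside the naive range. The levels rest on between 12 and 87 reads per library.

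**Figure D1:**
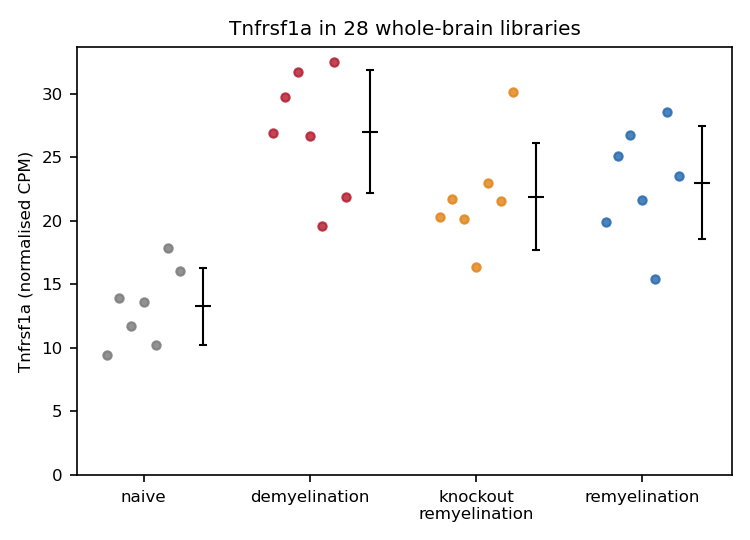
Normalised CPM of Tnfrsf1a (vertical axis) in each of 28 whole-brain libraries by group; each point is a library, and the bar beside them is the mean ± SD of 7 libraries. The demyelination libraries, from 19.6 to 32.5 CPM, do not overlap the naive libraries, from 9.47 to 17.9 CPM, while the knockout and remyelination libraries share 1 range.

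At the peak of demyelination Tnfrsf1a averaged 27.0 ± 4.85 CPM, against 13.3 ± 3.04 CPM in naive brains (SD, n = 7 each). The fitted fold was 2.01 with a 95% interval of 1.57 to 2.57, or 1.01 on the log2 scale with a standard error of 0.176 (edgeR adjusted p = 0.000205). By p-value Tnfrsf1a was the gene at rank 67 of 12423. It was the 1 called member of 7 tested, where 2% of all genes tested were called. It was also the 1 member of 10 whose group ranges did not overlap, which held for 1.38% of all genes tested. The rise was called in all 38 alternative fits, which ranged from 0.95 to 1.09 on the log2 scale.

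Remyelination brains held 23.0 ± 4.43 CPM of Tnfrsf1a, against the same 13.3 ± 3.04 CPM in naive brains, a rise of 0.77 on the log2 scale with a 95% interval of 0.41 to 1.12 (edgeR adjusted p = 0.0214). Here 1 of 7 members was called, against 0.628% of all genes tested. This call depended on single libraries: it was lost without naive library 1, 3 or 5, or without remyelination library 2, 3 or 6, with an adjusted p of up to 0.0774. It was also lost when knockout library 1 and naive library 1 were left out together (adjusted p = 0.0538). The log2 fold change stayed between 0.71 and 0.86 when single libraries were left out.

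Between remyelination and demyelination brains the level of Tnfrsf1a was 23.0 against 27.0 CPM, a log2 difference of -0.24 with a 95% interval of -0.57 to 0.09 (edgeR adjusted p = 0.884). The groups overlapped, apart from 1 remyelination library below all demyelination libraries. No member of 7 was called in this comparison, none had an unadjusted p below 0.05, and DESeq2 called none either, while 0.386% of all genes tested were called by edgeR.

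The comparison the deletion was made for sets knockout against remyelination brains. The labels name Cx3cr1-CreER for the knockout group alone, so effects of the CreER allele and of the deletion cannot be told apart. This limit holds for every knockout comparison given here. Tnfrsf1a averaged 21.9 ± 4.20 CPM in knockout brains and 23.0 ± 4.43 CPM in remyelination brains (SD, n = 7 each). The log2 difference was -0.05 with a standard error of 0.167 (edgeR adjusted p = 0.961). Its 95% interval, from -0.39 to 0.29, leaves room for a level between 0.765 and 1.22 times that of the controls. The sign of the difference turned when knockout library 4 or remyelination library 6 was left out, with values from -0.15 to 0.01. A tag near the transcript end may not cover the floxed exons, and cells other than microglia express Tnfrsf1a, so the whole-brain level is no check on the deletion. Cx3cr1, the locus that carries the CreER, had 25.8 ± 11.7 CPM in knockout and 48.4 ± 7.73 CPM in remyelination brains, a log2 fold change of -0.89 (edgeR adjusted p = 0.0365), a call lost in 16 of 38 alternative fits, with an adjusted p of up to 0.323 in the fit of these 2 groups alone.

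Knockout brains still held more Tnfrsf1a than naive brains, 21.9 ± 4.20 against 13.3 ± 3.04 CPM. The rise was 0.72 on the log2 scale with a 95% interval of 0.36 to 1.07 (edgeR adjusted p = 0.0187), and 1 of 7 members was called where 3.24% of all genes tested were. The call was lost without knockout library 7 or naive library 5, with an adjusted p of up to 0.0786. Set against demyelination brains, knockout brains had a log2 difference of -0.29 with a 95% interval of -0.62 to 0.05 (edgeR adjusted p = 0.556). No member was called there by edgeR, against 0.604% of all genes tested, and DESeq2 called none. The 1 member with an unadjusted p below 0.05 was Traf2. By p-value it stood only at rank 1058 of 12423 genes tested, so that count is not read as a result about the members. The knockout and remyelination comparisons with naive or demyelination brains share those control libraries.

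**Figure D2:**
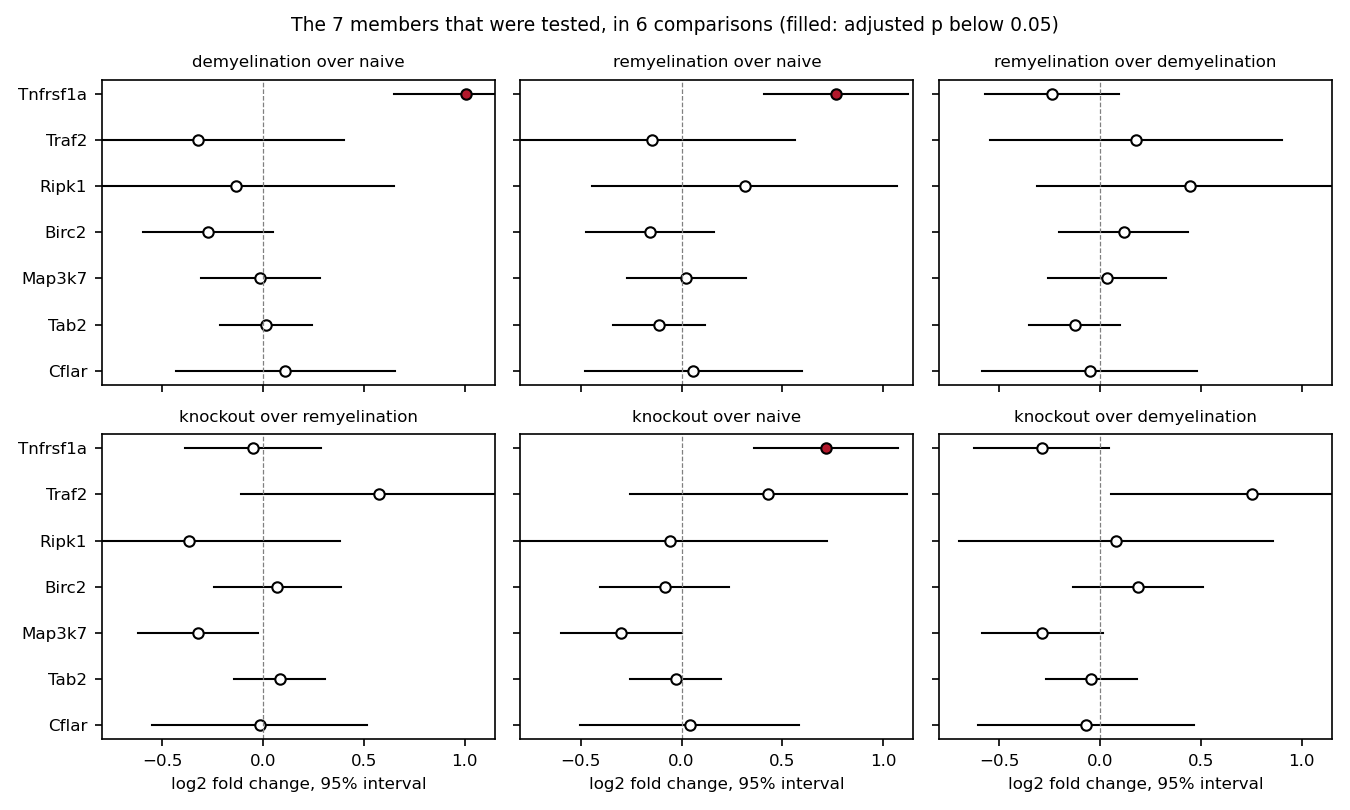
Log2 fold change (horizontal axis) of the 7 members tested in 6 comparisons between groups; points are the fitted values, bars their 95% intervals, and filled points have an edgeR adjusted p below 0.05. The only filled points are Tnfrsf1a over naive, at 1.01 in demyelination, 0.77 in remyelination and 0.72 in knockout brains.

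The adaptors Tradd and Fadd were among the scarcest members. TRADD is the platform on which the complex is built, and its transcript Tradd (ENSMUSG00000031887.14) had 25 reads in all naive libraries together, 32 in demyelination, 34 in knockout and 37 in remyelination libraries. FADD links the complex to caspase-8, and Fadd (ENSMUSG00000031077.8) had 30, 36, 45 and 27 reads in the same order of groups. Per library Tradd lay between 0 and 4.30 CPM and Fadd between 0 and 5.28 CPM, around the floor of 3 reads, which equals 0.956 to 1.97 CPM. The groups overlapped in all comparisons. In a fit without the filter on low counts, the log2 differences of both genes had standard errors between 0.55 and 0.60. Changes that are not small could therefore also go unresolved at this depth. Fadd differed by 0.79 in knockout over remyelination brains, at an unadjusted edgeR p of 0.161. The lowest adjusted p over the 6 comparisons in that edgeR fit was 0.888 for Tradd and 0.704 for Fadd.

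Traf2 (ENSMUSG00000026942.14), the adaptor that carries the cIAP ligases, could be tested. Its lowest, median and highest levels were 2.88, 3.95 and 9.81 CPM in naive, 2.33, 3.13 and 8.01 CPM in demyelination, 4.14, 6.08 and 10.7 CPM in knockout, and 1.89, 4.36 and 8.24 CPM in remyelination libraries. All groups overlapped. Knockout brains averaged 6.54 ± 2.35 CPM and remyelination brains 4.52 ± 1.94 CPM, a log2 difference of 0.57 with a 95% interval of -0.11 to 1.26 (edgeR adjusted p = 0.713). Against demyelination brains, at 3.94 ± 1.98 CPM, the knockout difference in Traf2 was 0.75 on the log2 scale (interval 0.05 to 1.45, unadjusted p = 0.0355), which did not pass after adjustment (edgeR adjusted p = 0.417).

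RIPK1 is both scaffold and kinase, the protein on which the pathway turns between survival and death. Ripk1 (ENSMUSG00000021408.16) varied widely within groups, with standard deviations of 3.42 CPM around 5.78 in naive, 2.18 around 5.17 in demyelination, 3.46 around 5.55 in knockout and 2.12 around 7.24 CPM in remyelination brains. Its knockout libraries ran from 1.48 to 9.83 CPM and its remyelination libraries from 4.72 to 11.3 CPM. That spread was larger than any difference between group means. The log2 difference of knockout from remyelination was -0.37, and its interval of -1.12 to 0.38 would allow for anything from a fold of 0.460 to one of 1.30 (edgeR adjusted p = 0.856).

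Birc2 (ENSMUSG00000057367.13) encodes cIAP1, the ligase that puts ubiquitin chains on RIPK1. It averaged 35.0 ± 6.77 CPM in naive, 29.0 ± 6.30 in demyelination, 33.1 ± 5.84 in knockout and 31.3 ± 7.21 CPM in remyelination brains. Demyelination libraries, from 21.3 to 39.6 CPM, overlapped naive libraries, from 28.4 to 42.7 CPM. The log2 difference of demyelination from naive was -0.27 with an interval of -0.59 to 0.05 (edgeR adjusted p = 0.490). For knockout against remyelination it was 0.07 with an interval of -0.25 to 0.39 (edgeR adjusted p = 0.943).

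Map3k7 (ENSMUSG00000028284.14) encodes TAK1, the kinase that passes the signal on to NF-kB and the MAP kinases. Its lowest, median and highest levels were 22.5, 28.1 and 34.8 CPM in knockout libraries, against 27.0, 36.8 and 43.1 CPM in remyelination libraries. The ranges overlapped for much of their length. The means were 28 ± 4.67 CPM in knockout and 35.1 ± 6.19 CPM in remyelination brains. The log2 difference was -0.32 with an interval of -0.62 to -0.02, at an unadjusted p of 0.0343, and it did not pass after adjustment (edgeR adjusted p = 0.646). In this comparison Map3k7 was the 1 member with an unadjusted p below 0.05. By p-value it stood only at rank 655 of 12423 genes tested, so that count is not read as a result about the members. After adjustment edgeR and DESeq2 each called 0 of the members, and edgeR called 0.0483% of all genes tested. Demyelination brains had 34.0 ± 4.48 CPM of Map3k7, against 34.4 ± 7.44 CPM in naive brains.

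Tab2 (ENSMUSG00000015755.17), which encodes the chain-binding partner of TAK1, was the most abundant member and the one measured most closely. It averaged 85.3 ± 10.5 CPM in naive, 86.4 ± 7.50 in demyelination, 83.8 ± 12.1 in knockout and 79.0 ± 13.3 CPM in remyelination brains. The log2 difference of demyelination from naive brains was 0.01 with an interval of -0.21 to 0.24 (edgeR adjusted p = 0.974). That of knockout from remyelination was 0.08 with an interval of -0.14 to 0.31 (edgeR adjusted p = 0.899). In these 2 comparisons the intervals leave room for changes of at most 1.24 times upward, and of 0.863 times downward.

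Casp8 (ENSMUSG00000026029.15), the protease of the death-inducing complex, was the rarest member. Its group totals were 9 reads in naive, 14 in demyelination, 23 in knockout and 24 in remyelination libraries. The 95% counting intervals of these totals were 4.12 to 17.1, 7.65 to 23.5, 14.6 to 34.5 and 15.4 to 35.7 reads, and 3 naive libraries had none. Without the filter on low counts the log2 difference of remyelination from naive was 1.06 (edgeR adjusted p = 0.669). The lowest adjusted p of Casp8 over the 6 comparisons in that unfiltered edgeR fit was 0.473, in knockout over naive brains.

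Cflar (ENSMUSG00000026031.16) encodes cFLIP, the brake on caspase-8. Its group means lay close together, at 11.8 ± 4.93 CPM in naive, 13.0 ± 2.66 in demyelination, 12.4 ± 1.36 in knockout and 12.4 ± 6.11 CPM in remyelination brains. What differed was the spread: knockout libraries ran from 9.70 to 13.5 CPM, against 2.73 to 20.1 CPM in remyelination libraries. The coefficient of variation was 11% in knockout and 49.3% in remyelination libraries, where counting error alone would give 19.7 and 18.6%. It was 41.9% in naive and 20.4% in demyelination libraries, so a wide spread was not particular to remyelination. The knockout value lay below counting error, and the lowest remyelination library held 5 reads. The difference in spread was not tested. The log2 difference of the means, knockout over remyelination, was -0.02 with an interval of -0.55 to 0.51 (edgeR adjusted p = 0.994).

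**Figure D3:**
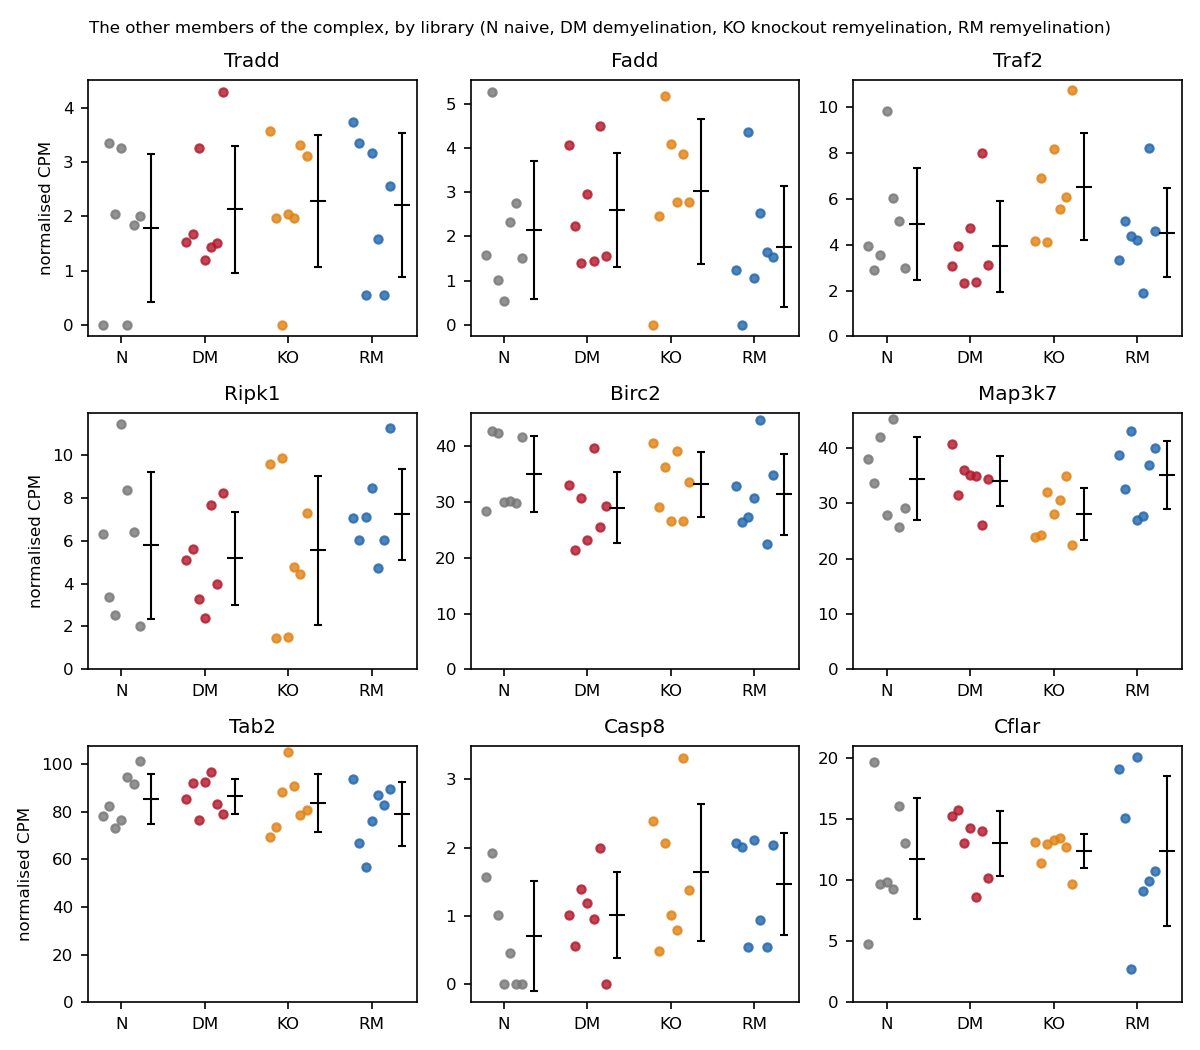
Normalised CPM (vertical axes, each starting at or near 0) of the other 9 members in naive (N), demyelination (DM), knockout (KO) and remyelination (RM) libraries; points are libraries and bars the mean ± SD of 7. The groups overlap in every panel, and Cflar spans 9.70 to 13.5 CPM in KO and 2.73 to 20.1 CPM in RM libraries.

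Added together, the partners of the receptor kept a similar level while the receptor's share differed between groups. The 9 members other than Tnfrsf1a summed to 182 ± 13.4 CPM in naive, 177 ± 10.2 in demyelination, 176 ± 14.8 in knockout and 175 ± 19.9 CPM in remyelination brains. Tnfrsf1a made up 6.80% of the CPM of all 10 members in naive, 13.2% in demyelination, 11% in knockout and 11.6% in remyelination brains. Tab2 alone made up 43.7% in naive, 42.3% in demyelination, 42.3% in knockout and 39.9% in remyelination brains. The sums therefore say little about the scarce members. Over all 28 libraries the members ranked by mean level from Tab2 at 83.6 CPM through Map3k7 at 32.9, Birc2 at 32.1, Tnfrsf1a at 21.3, Cflar at 12.4, Ripk1 at 5.93, Traf2 at 4.98, Fadd at 2.38 and Tradd at 2.10 to Casp8 at 1.21 CPM. The library ranges of Map3k7 and Birc2 overlapped almost wholly, as did those of Fadd and Tradd and those of Ripk1 and Traf2, so the order within each of these pairs is not resolved. The median log2 fold change of the 7 members tested was -0.01 in demyelination over naive and -0.02 in knockout over remyelination, where the medians over all genes tested were within 0.01 of 0.

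The ligands of the receptor were at the limit of detection. Tnf had 1 read in remyelination libraries and 0 in each of the other groups, and Lta, which encodes lymphotoxin alpha, had 3 reads in remyelination and 0 elsewhere. For a group total of 0 reads the 95% counting interval reaches 3.69 reads. Tnfrsf1b, which encodes the second TNF receptor, had 8 reads in naive, 21 in demyelination, 28 in knockout and 25 in remyelination libraries. The necroptosis genes Ripk3 and Mlkl had at most 4 reads per group. None of these genes passed the filter on low counts. In the fit without it, Tnfrsf1b had log2 differences from naive of 1.28 in demyelination, 1.55 in knockout and 1.24 in remyelination brains, with standard errors of 0.73 to 0.75. None of them passed after adjustment (edgeR adjusted p = 0.520, 0.286 and 0.572), and the knockout difference had an unadjusted p of 0.0351.

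Beyond the members, 74 genes of the pathway were sorted into 7 lists by role, and 47 of them had enough reads for the test. By edgeR 2 of the 47 were called in demyelination over naive, where 2% of all genes tested were, and 1 in remyelination over naive, where 0.628% were. There was 1 in remyelination over demyelination, against 0.386% of all genes, and 2 in knockout over naive, against 3.24%. With at most 2 of 47 genes called, these counts are too small to set apart from the shares over all genes. In knockout over remyelination edgeR called 0 (0.0483% of all genes), 6 of the 47 had an unadjusted p below 0.05, and DESeq2 called 1 of them, Nfkbia. In knockout over demyelination edgeR called 0 (0.604% of all genes), 4 had an unadjusted p below 0.05 and DESeq2 called 0. Counts at that unadjusted threshold were 4 in demyelination over naive, 5 in remyelination over naive, 6 in remyelination over demyelination and 10 in knockout over naive. The share of all genes at the unadjusted threshold is not given here, so none of these counts is read as a result about the pathway. The median log2 fold change of the 47 genes was -0.02 both in demyelination over naive and in knockout over remyelination. The genes called by edgeR came to 4 in all: Xiap and Tab3 among the 13 other complex I and ubiquitin chain genes tested, and Nfkbia and Csf1 among the 9 TNF-induced target genes tested. By edgeR no gene was called among the 7 deubiquitinases and chain-binding brakes, the 6 cell death effectors, the 9 genes of the MAP kinase branch, the 2 shedding genes or the 1 other death domain receptor tested. DESeq2 called the same 4 genes and 2 more, which edgeR narrowly did not and which are named here after their values were seen. Mapk8, the MAP kinase JNK1, had 81.8 ± 18.8 CPM in demyelination and 111 ± 15.7 CPM in naive brains, a log2 difference of -0.44 (adjusted p = 0.0331 by DESeq2 and 0.0528 by edgeR), which was called in 9 of 38 alternative fits. Tbk1, a kinase of the ubiquitin-dependent branch, had 21.0 ± 7.63 CPM in knockout and 31.9 ± 4.59 CPM in naive brains, a log2 difference of -0.61 (adjusted p = 0.0326 by DESeq2 and 0.0512 by edgeR), called in 7 of 38.

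Nfkbia (ENSMUSG00000021025.9) encodes IkB-alpha, which holds NF-kB in the cytoplasm and is itself switched on by NF-kB. Its lowest, median and highest levels were 103, 136 and 153 CPM in naive, 85.8, 113 and 127 in demyelination, 98.7, 106 and 129 in knockout, and 61.8, 80.4 and 96.4 CPM in remyelination libraries. Remyelination libraries were the low group, and all of them lay below all naive and below all knockout libraries. Between remyelination and naive, ranges did not overlap for 1 of the 47 pathway genes tested and for 0.604% of all genes tested. In remyelination Nfkbia averaged 78.9 ± 11.7 CPM, against 129 ± 18.4 CPM in naive brains, and fell by 0.70 on the log2 scale (edgeR adjusted p = 0.000131). Relative to demyelination brains it fell by 0.48 in remyelination brains (edgeR adjusted p = 0.0321), a call lost in 10 of 38 alternative fits, with an adjusted p of up to 0.131 when a single library was left out.

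In knockout brains Nfkbia averaged 110 ± 11.5 CPM, against 78.9 ± 11.7 CPM in remyelination brains. The log2 difference was 0.47 with a standard error of 0.112 and a 95% interval of 0.24 to 0.70. This did not pass the threshold by edgeR (adjusted p = 0.163) and did by DESeq2 (adjusted p = 0.0441). Its ranges did not overlap in this comparison, which held for 1 of the 47 pathway genes tested and for 0.129% of all genes tested. The comparison shares its remyelination libraries with the comparisons of Nfkbia given before it. In knockout over naive brains the log2 difference was -0.23 (edgeR adjusted p = 0.255).

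Csf1, a growth factor for microglia and a TNF-induced gene, averaged 32.8 ± 9.17 CPM in demyelination and 17.8 ± 3.80 CPM in naive brains, a rise of 0.85 on the log2 scale (edgeR adjusted p = 0.00351). The demyelination libraries, from 19.8 to 45.5 CPM, overlapped the naive libraries, from 13.3 to 21.5 CPM. It was also 0.63 higher in knockout than in naive brains (27.7 ± 4.25 against 17.8 ± 3.80 CPM, edgeR adjusted p = 0.0490), a call lost in 17 of 38 alternative fits, with an adjusted p of up to 0.136.

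Xiap, an inhibitor of caspases and a ubiquitin ligase, fell by 0.39 on the log2 scale in demyelination, at 115 ± 13.6 CPM against 151 ± 19.0 CPM in naive brains (edgeR adjusted p = 0.0473). That call was lost in 22 of 38 alternative fits, with an adjusted p of up to 0.161. In knockout over naive brains the Xiap difference was -0.34, which passed by DESeq2 (adjusted p = 0.0432) and not by edgeR (adjusted p = 0.0708). Tab3, a relative of Tab2 that also binds TAK1, was at 7.24 ± 2.25 CPM in knockout and 12.7 ± 4.0 CPM in naive brains, a fall of 0.83 on the log2 scale (edgeR adjusted p = 0.0407). It was lost in 15 of 38 alternative fits, with an adjusted p of up to 0.102. Both edgeR calls lay near the threshold.

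**Figure D4:**
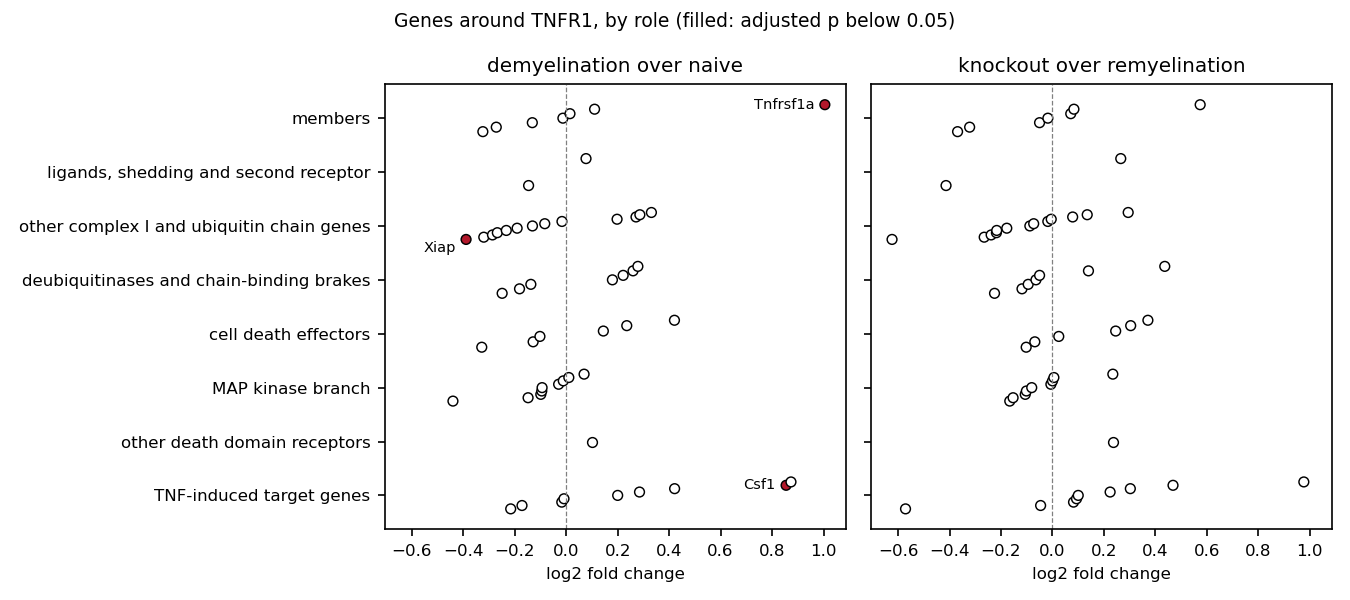
Log2 fold change (horizontal axis) of the 7 members and 47 other pathway genes tested, in rows by role; each point is a gene, and filled points have an edgeR adjusted p below 0.05. In demyelination over naive brains the filled points are Tnfrsf1a at 1.01, Csf1 at 0.85 and Xiap at -0.39; in knockout over remyelination brains there are 0.

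Across the group means the level of Tnfrsf1a moved with the summed level of microglia markers, though not with each of them. Whether they moved together between the libraries of a group was not tested. The summed CPM of 12 microglia markers ran from 234 to 321 in naive, 567 to 739 in demyelination, 412 to 544 in knockout and 439 to 565 in remyelination libraries. All 12 could be tested, and none was at 0 in any group. Relative to the naive mean, this sum was 2.25 times in demyelination, 1.65 times in knockout and 1.73 times in remyelination brains, where Tnfrsf1a was 2.04, 1.65 and 1.73 times its own naive mean. The sum includes Cx3cr1, the locus that carries the CreER. Cx3cr1 averaged 30.5 CPM in naive, 25.8 in knockout and 48.4 CPM in remyelination brains, so the knockout ratio depends in part on that locus. In demyelination over naive, 9 of the 12 markers were called higher and 0 lower, with a median log2 fold change of 1.19. Of the 12, 2 had log2 fold changes below 0, among them P2ry12 at -0.49 (edgeR adjusted p = 0.255). In knockout over naive brains P2ry12 was called lower, at -0.71 (edgeR adjusted p = 0.0457), a call lost in 20 of 38 alternative fits. In whole-brain RNA, more cells of a type and more RNA per cell cannot be told apart, and the part of microglia in the change of Tnfrsf1a was not tested.

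Across the group means Tnfrsf1a also moved with Gfap, the filament gene that reactive astrocytes raise. Gfap rose over naive by 1.82 on the log2 scale in demyelination, 1.59 in knockout and 1.34 in remyelination brains (edgeR adjusted p = 9.07e-09, 1.42e-06 and 4.13e-05). It was the 1 astrocyte marker of 8 called in each of these comparisons. The sums of the 8 astrocyte markers were 1.07 times naive in demyelination, 1.09 in knockout and 1.04 in remyelination brains. Slc1a2 made up 53.2% and Aldoc 23.0% of that sum and Gfap 0.740%, so the sum mostly follows the first pair. The part of reactive astrocytes in the change of Tnfrsf1a was not tested. The 8 oligodendrocyte markers, which define the cells that cuprizone kills, summed to 0.455 times naive in demyelination, 0.993 in knockout and 0.905 in remyelination brains. The 7 neuron markers stayed at 0.974 to 0.987 times naive, and the 7 endothelial and mural markers at 1.03 to 1.13 times. Blood leukocyte markers summed to at most 16.9 CPM in any library. Red blood cell markers were 2.07 times naive in knockout and 1.55 times in remyelination brains, and their part in any value here was not tested.

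The marker genes called in at least 1 comparison included Csf1r, Cx3cr1, P2ry12, C1qa, C1qb, C1qc, Ctss, Fcrls and Laptm5 for microglia, Gfap for astrocytes, Mbp, Mog, Mobp, Mal, Mag, Cnp and Opalin for oligodendrocytes, Vtn for mural cells, and Hba-a1, Hba-a2, Hbb-bs and Hbb-bt for red blood cells. The neuron, astrocyte and oligodendrocyte markers of a whole brain were all detected in every group.

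**Figure D5:**
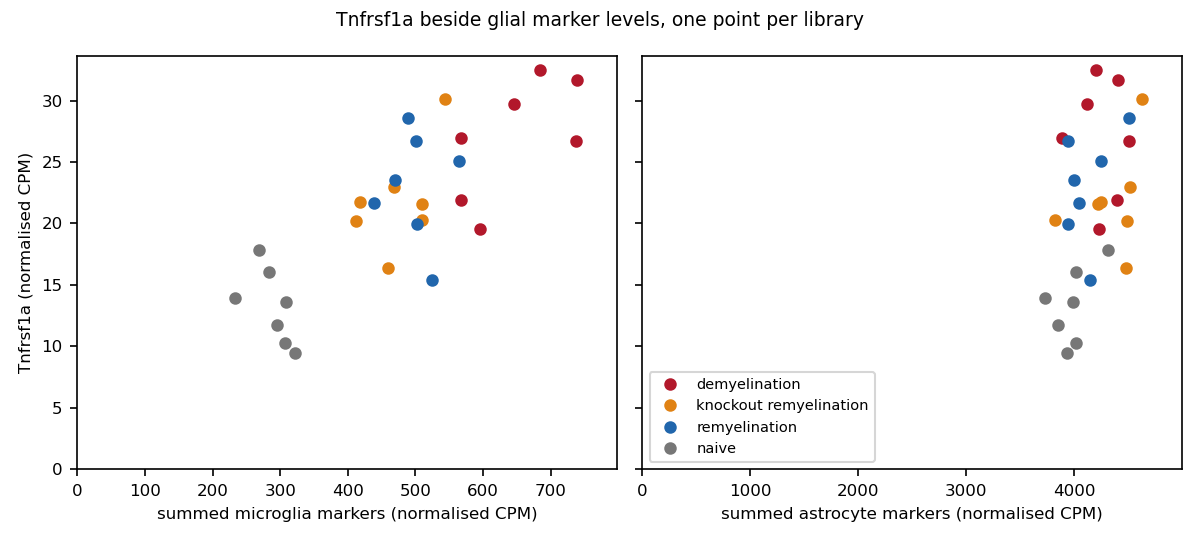
Normalised CPM of Tnfrsf1a (vertical axis) against the summed CPM of 12 microglia markers (left) and 8 astrocyte markers (right), 1 point per library, coloured by group. Naive libraries lie at 234 to 321 CPM of microglia markers and demyelination libraries at 567 to 739 CPM, whereas the astrocyte sums, of which Slc1a2 and Aldoc make up most, overlap between all groups.

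The genes whose group pattern was most like that of Tnfrsf1a were sought by the root mean square difference of the 4 group means of log2(CPM + 1), each gene centred on its own mean, over 9378 genes averaging at least 10 CPM. The 5 closest were Mt2 at 0.0556, Cenpo at 0.0666, Cd72 at 0.0744, Csf1r at 0.0748 and Nfe2l2 at 0.0781, where the median of all genes compared was 0.381. Mt2, a metallothionein gene that responds to metals and stress, averaged 624.8 ± 133 CPM in demyelination and 304 ± 45.9 CPM in naive brains, a log2 rise of 1.04 (edgeR adjusted p = 3.40e-08). Csf1r, the receptor for Csf1 and 1 of the 12 microglia markers, rose by 0.84 (adjusted p = 1.79e-05), and Nfe2l2, the regulator of the antioxidant response, by 0.81 (adjusted p = 0.00403). Cenpo and Cd72 had log2 differences of 0.41 and 0.62 that did not pass (edgeR adjusted p = 0.586 and 0.181). With 4 group means, likeness of this kind is a description only.

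Library depth was modest throughout. Totals ran from 1522913 to 2150500 reads in naive, 1695221 to 2417151 in demyelination, 1531719 to 2986498 in knockout and 1864535 to 3137254 in remyelination libraries. The most abundant gene, ENSMUSG00000119584.1, took between 1.33% of the reads in knockout library 1 and 25.54% in naive library 1. Calls of members that depend on these 2 libraries are named where they occur. For other genes the fits that lost a call are mostly counted and not named. The common biological coefficient of variation between libraries of a group was 19.5%.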

How the data were processed

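The deposited values are RSEM expected counts per gene and library, not normalised, per the file headers; between 96.59 and 97.69% were whole within 0.005, and all were rounded. FastQC, cutadapt, STAR, RSEM, edgeR and the build GRCm39 are named in the submitters' processing notes; what each did, with which version and strandedness, is not given in the sources used here. Symbols came from GENCODE M21 by identifier (52081 of 55414 matched; unmatched genes held 10.76% of counts). Counts were scaled by TMM, filtered with filterByExpr and fitted with edgeR 4.0.16 (quasi-likelihood, R 4.3.3) in 1 fit of 28 libraries and 4 group means, with Benjamini-Hochberg adjustment over 12423 genes and a threshold of 0.05. CPM used the totals of all genes times the TMM factors. The fit was tested on simulated counts. Alternatives were 28 fits leaving out a library each and 10 others, DESeq2 1.42.0 among them. All members, lists and tests were chosen with earlier results of these data known. Named genes were all members, every called gene of the other lists, and the 5 genes most like Tnfrsf1a; some marker genes are not reported here by name. Replicate libraries differed by at least 2.49 chi-square units per degree of freedom, so none was a copy of another library. This check cannot tell libraries of the same animal from libraries of separate animals. Intervals of totals and the floor of 3 reads cover counting error only. Overlapping or antisense genes may share reads.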

Additional observations from a re-analysis of the deposited data

Results flagged for a closer look

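Traf2 in demyelination library 6 stood apart from its group, at 8.01 CPM where the next highest library had 4.75 and the lowest 2.33 CPM, a gap of 0.574 of the group's range, just above the critical value of Dixon's test for 7 samples. It was the 1 such library among 40 groups of member values looked at, and chance alone marks about 1 group in 20.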

How the results depend on the processing

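Of 1576 member values under the alternatives 57 changed sign, 0 of them called in the reported fit, and 0 members became called. With knockout library 1 and naive library 1 left out together, the members called in remyelination over naive fell to 0, with Tnfrsf1a at 0.71 on the log2 scale (adjusted p = 0.0538), and 6 uncalled values turned sign to read Map3k7 0.0071, Tab2 -0.0051 and Cflar -0.0052 (demyelination over naive), Cflar -0.056 (remyelination over naive), Cflar -0.090 (knockout over naive) and Ripk1 -0.087 (knockout over demyelination). With unscaled library totals Map3k7 read 0.039 in demyelination over naive. Leaving out single libraries gave Tnfrsf1a 0.71 to 0.86 (remyelination over naive), 0.62 to 0.81 (knockout over naive) and -0.15 to 0.014 (knockout over remyelination), with 0 to 1 members called in both comparisons with naive. It turned the sign of uncalled values with these ranges: in demyelination over naive, Ripk1 -0.29 to 0.12, Map3k7 -0.075 to 0.067, Tab2 -0.019 to 0.064 and Cflar -0.0010 to 0.28; in remyelination over naive, Traf2 -0.34 to 0.11, Map3k7 -0.038 to 0.10 and Cflar -0.085 to 0.23; in remyelination over demyelination, Traf2 -0.018 to 0.45, Map3k7 -0.021 to 0.090 and Cflar -0.20 to 0.11; in knockout over remyelination, Cflar -0.18 to 0.13; in knockout over naive, Ripk1 -0.24 to 0.21, Tab2 -0.082 to 0.024 and Cflar -0.070 to 0.21; in knockout over demyelination, Ripk1 -0.11 to 0.24. The causes were not tested. The labels tie replicate numbers to no animal or batch, and the samples were not treated as paired: 5 of 42 same-numbered pairs correlated above 0.1 (median r 0.0334), against 17 of 252 other pairs (median r -0.0057). As a hint of some sharing, 11 of 28 libraries correlated best with their own number, which 3 of the 21 libraries of other groups carried. With the replicate block Tnfrsf1a read 1.02, 0.78 and 0.74 over naive in demyelination, remyelination and knockout, all called, and Cflar 0.047 in knockout over remyelination. Calls over all genes moved more: in remyelination over naive 78 became 122 with no filter, 147 with the block and 130 by DESeq2; in knockout over remyelination 6 became 28 with no filter and 10 by DESeq2; in knockout over naive 403 became 243 with unscaled totals, 608 with the block and 644 without those 2 libraries; in knockout over demyelination 75 became 163 with no filter. Depth limits Tradd, Fadd and Casp8 most.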
